A study of Mus musculus with 6 samples.

Results

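Glutathione, peroxiredoxin and thioredoxin genes were followed in the mammary gland of mice that had lost Mmp14 from the stroma. The members were taken by symbol: glutathione transferases (Gst, Mgst), glutathione peroxidases (Gpx), peroxiredoxins (Prdx), thioredoxins and their reductases (Txn, Txnrd), superoxide dismutases (Sod), the enzymes that make and reduce glutathione (Gclc, Gclm, Gss, Gsr), and Nfe2l2, Keap1, Nqo1, Hmox1 and Srxn1. The rule found 49 of the 22180 genes that the arrays read through a probe set with 1 symbol. RefSeq holds 56 symbols of this form; Gsta1, Gsta2, Gstm5, Gstz1 and Prdx1 stand only on probe sets shared between several symbols, which were left out, and Prdx5 and Prdx6 were not analysed here.

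Total RNA came from whole inguinal mammary glands of C57BL/6J mice at 4 weeks of age, with 1 Affymetrix array for each of 3 animals per group. The wild-type group carried Mt1-mmp(+/+), the intact gene for the membrane-anchored matrix metalloproteinase now called Mmp14. The stromal knockout group was Dermo1Cre/Mt1-mmp(fl/fl), in which Cre expressed from Dermo1 (now Twist2), a gene of mesenchymal cells, cuts the floxed allele; knockout and wild-type mice were littermates. The labels list no Cre for the wild-type mice, so the effect of Cre and that of the deletion cannot be told apart. Values are log2 signals, and a difference is knockout minus wild type in log2 units with the moderated standard error (SE) of limma, with p-values corrected by Benjamini-Hochberg across the 22180 genes and called under 0.05. Signals of different probe sets are not strictly comparable, so differences between groups are read within a gene. Exceptions are the rough cut for low levels given below, the means and sums over cell type markers, and the choice of probe set.

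Mmp14 itself read 11.18, 10.55 and 10.90 in the wild-type arrays and 8.57, 8.55 and 8.75 in the knockout arrays, a fall of 2.25 ± 0.17 log2 units (limma adjusted p = 0.000454) that matches the labels. Array medians lay between 3.77 and 3.89. Arrays of 1 group correlated at 0.990 to 0.992 over genes and arrays of different groups at 0.975 to 0.983. Wild type 1 stood apart in skeletal muscle genes, with a mean of 5.61 over 8 markers against 2.92 to 3.69 on the other arrays. Knockout 2 stood apart in Slc4a1, the 1 erythroid marker measured of 6 listed, at 7.02 against 2.82 to 4.57 on the other arrays. Of the markers listed for the gland's main cell types, Krt5 (basal), Prlr (luminal) and Cfd (white adipocyte) were not measured. No luminal, basal, adipocyte, fibroblast, endothelial or macrophage marker measured lay in both groups under 2.68, the 33rd percentile of gene levels. Below that level a change is hard to read. In whole tissue, fewer cells of a type and less RNA per cell cannot be told apart.

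Glutathione is the main small thiol of cells. Glutamate cysteine ligase (Gclc with its modifier Gclm) and glutathione synthetase (Gss) make it, glutathione peroxidases spend it on peroxides, transferases couple it to lipid aldehydes and foreign compounds, and glutathione reductase (Gsr) restores it. Peroxiredoxins remove peroxide through thioredoxin, which thioredoxin reductases recharge, and superoxide dismutases supply the peroxide from superoxide. Keap1 holds the transcription factor Nfe2l2 in check, and Nfe2l2 drives many of these genes through antioxidant response elements when electrophiles or oxidants accumulate. In fat, which fills most of the young gland, mitochondrial oxidation is a major source of superoxide.

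Of the 49 members, 9 rose in the knockout, 1 fell and 39 did not pass. The rises were Gstk1, Mgst3, Gstt2, Gstt1, Gstm7, Sod2, Prdx3, Sod3 and Gsto1, and the fall was Hmox1. Rises made up 18.4% of the members against 5.05% of all genes tested, and falls 2.04% against 7.2%. In 17 members (34.7%) every knockout array lay above every wild-type array, as in 17.2% of all genes, and in 3 members (6.12%) every knockout array lay below, as in 15.4% of all genes. The knockout mean was the higher in 36 members (73.5%), as in 54.4% of all genes, and 17 members were higher and 4 lower at an unadjusted p under 0.05, against 13.1% and 13.4% of all genes. The median difference over the members was 0.21 log2 units against 0.03 over all genes. The count of rises was lower with 1 array left out. It was 3 without wild type 1 or without knockout 2, 4 without wild type 3, 5 without wild type 2, 6 without knockout 1 and 8 without knockout 3. Rises over all genes dropped too, from 1121 to 521 without wild type 1 and 494 without knockout 2. Fewer arrays leave fewer degrees of freedom, and this was not separated from the effect of a given array. Gstk1 and Mgst3 kept their call in all 14 alternatives tried, and Gstk1, Mgst3 and Gstt2 were the 3 rises that passed without wild type 1, the array high in muscle genes.

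**Figure D1:**
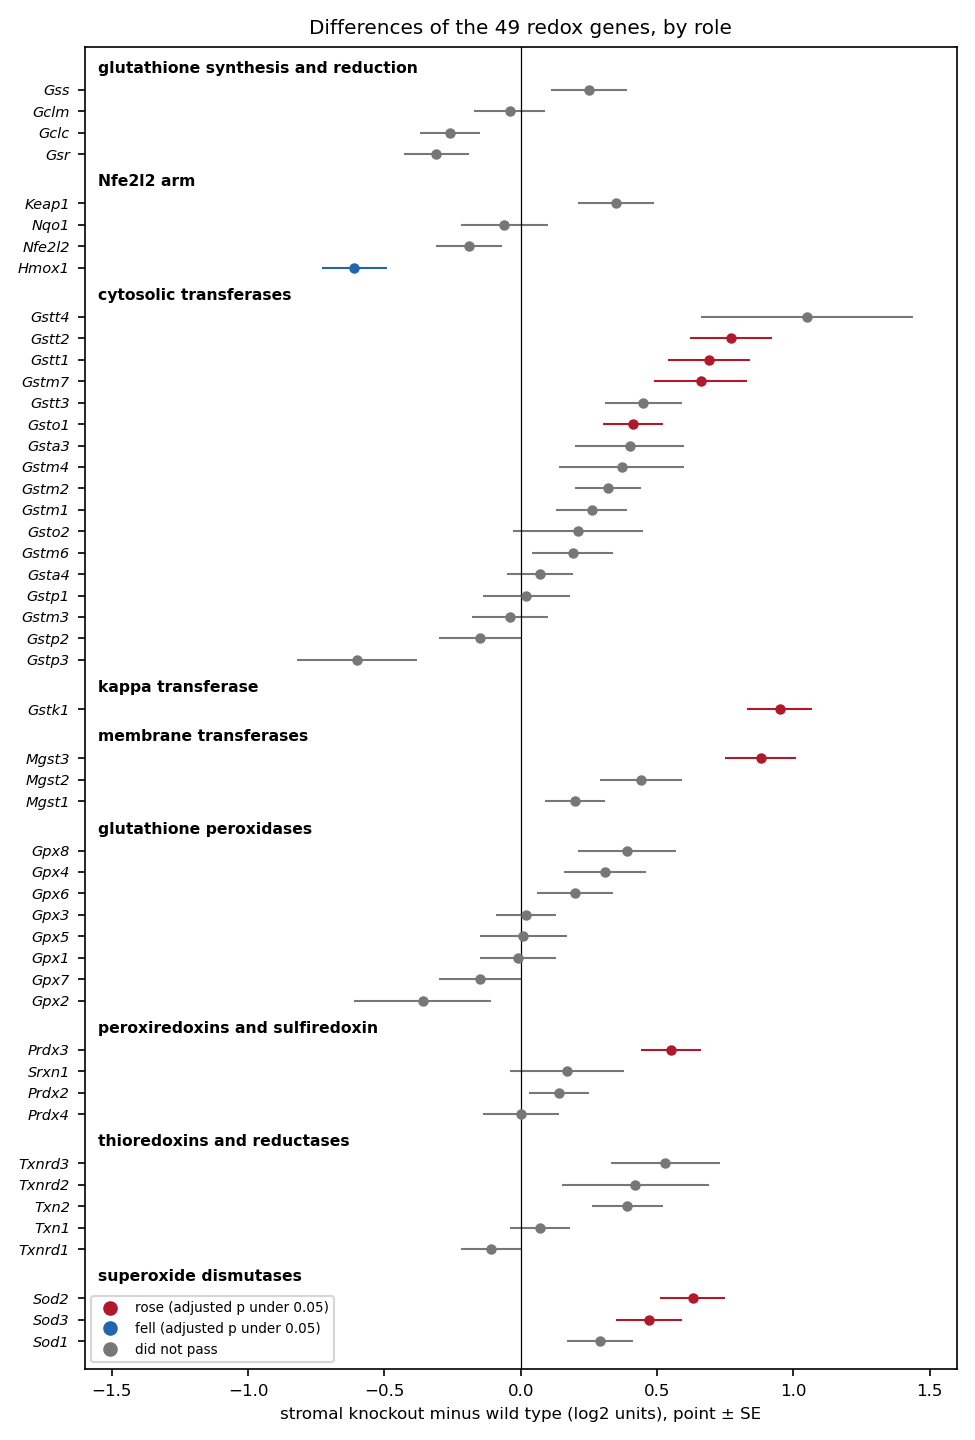
Knockout minus wild type in log2 units (horizontal axis) for each of the 49 members, grouped by role, with bars of 1 SE and n = 3 arrays per group. The 9 rises (red) lie between 0.41 and 0.95, Hmox1 (blue) lies at -0.61, and the glutathione synthesis genes and peroxidases hold no gene past the threshold.

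The largest rise among the members that passed was that of Gstk1, the kappa-class transferase of mitochondria and peroxisomes. It read 8.70, 8.66 and 8.86 in wild type and 9.67, 9.79 and 9.61 in the knockout. The groups were separated by a gap of 0.74, and the rise was 0.95 ± 0.12 log2 units, or 1.93-fold (limma adjusted p = 0.00289). With each array left out in turn the difference stayed between 0.90 and 1.01.

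Mgst3, a membrane-bound transferase with glutathione peroxidase activity that also takes part in leukotriene metabolism, read 7.65, 7.33 and 7.58 in wild type and 8.40, 8.53 and 8.29 in the knockout. All knockout arrays were at least 0.64 above the highest wild-type array, and Mgst3 rose by 0.88 ± 0.13 (1.85-fold, limma adjusted p = 0.00599). Its relatives of the same membrane family lay higher without passing. Mgst2 read 6.55, 6.83 and 6.61 against 7.32, 7.08 and 6.90 (0.44 ± 0.15, limma adjusted p = 0.0979), and Mgst1, the abundant microsomal form, differed by 0.20 ± 0.11 (limma adjusted p = 0.327). In both genes every knockout array lay above every wild-type array, as in 17.2% of all genes, though the gaps were only 0.08 and 0.04.

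The upstream sequences of these largest rises, and of Sod2 and Prdx3 described further on, are given as the 250 bases before the RefSeq start site in GRCm38.p6, read 5′ to 3′ on the gene's own strand. Capitals mark GC boxes, the letters GGGCGG on either strand, which general promoter factors of the Sp family can bind. They were picked in part because none of the 4 holds the core of the antioxidant response element, TGACNNNGC, on either strand in its window. Its absence here is thus not a trait of the rises. Gstt1 and Gstm7 rose by more than Sod2 and Prdx3 (0.69 and 0.66 against 0.63 and 0.55) and are not shown. Gstt1 held 0 GC boxes in its stretch, Gstm7 holds the core, and Gstt2 has no window. Sod2 and Prdx3 joined this set once their values were known.

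Gstk1, chr6:42245685-42245934, plus strand: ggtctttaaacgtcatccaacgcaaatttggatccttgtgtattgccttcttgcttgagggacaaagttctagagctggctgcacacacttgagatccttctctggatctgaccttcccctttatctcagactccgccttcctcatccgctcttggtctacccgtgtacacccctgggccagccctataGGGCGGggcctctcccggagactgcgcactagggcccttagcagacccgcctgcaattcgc
Mgst3, chr1:167393842-167394091, minus strand: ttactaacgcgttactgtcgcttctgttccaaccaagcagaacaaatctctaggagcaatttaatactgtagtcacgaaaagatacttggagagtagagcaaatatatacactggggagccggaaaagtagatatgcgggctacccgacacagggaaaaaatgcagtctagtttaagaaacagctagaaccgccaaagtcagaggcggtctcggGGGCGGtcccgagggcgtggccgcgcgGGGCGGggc
Sod2, chr17:13007589-13007838, plus strand: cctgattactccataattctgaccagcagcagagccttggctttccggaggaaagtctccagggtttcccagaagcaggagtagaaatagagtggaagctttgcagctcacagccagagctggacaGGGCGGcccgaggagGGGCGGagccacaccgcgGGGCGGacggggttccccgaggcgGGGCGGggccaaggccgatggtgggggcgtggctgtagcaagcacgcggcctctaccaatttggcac
Prdx3, chr19:60874539-60874788, minus strand: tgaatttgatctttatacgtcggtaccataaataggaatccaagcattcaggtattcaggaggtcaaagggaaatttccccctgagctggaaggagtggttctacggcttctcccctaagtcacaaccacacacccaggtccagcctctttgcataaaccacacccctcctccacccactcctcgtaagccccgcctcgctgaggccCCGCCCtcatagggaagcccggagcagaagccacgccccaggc

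Sod2 held 4 GC boxes in this stretch, Mgst3 2, and Gstk1 and Prdx3 1 each. GC boxes stood in 60.7% of the 56 windows of 300 bases, 250 before and 50 after a start, that RefSeq gives for 43 of the members, and in 35.7% of all 32851 such windows. A match is a description of the letters and not a binding site.

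Theta-class transferases, cytosolic enzymes that act on small electrophiles and peroxides, lay higher in all 4 members measured, and 2 of them passed, where 54.4% of all genes lay higher and 5.05% rose. Gstt2 read 6.79, 7.02 and 7.30 in wild type and 7.76, 7.83 and 7.83 in the knockout, where the 3 arrays were nearly equal, and rose by 0.77 ± 0.15 (1.70-fold, limma adjusted p = 0.0152). Without knockout 2 its adjusted p was 0.0565. Gstt1 read 7.57, 7.35 and 7.71 against 8.08, 8.43 and 8.21, with no overlap, and rose by 0.69 ± 0.15 (1.62-fold, limma adjusted p = 0.0215). That call was lost without wild type 1 (0.0665), wild type 2 (0.0631) or knockout 2 (0.0768). Gstt3 read 6.13, 5.82 and 6.17 against 6.40, 6.65 and 6.42, also without overlap, but its difference of 0.45 ± 0.14 did not pass (limma adjusted p = 0.0803). Gstt4 read 1.87, 2.08 and 2.53 against 2.62, 2.86 and 4.16. Its wild-type mean of 2.16 lies under 2.68, knockout 3 stands well above the other arrays, and its difference of 1.05 ± 0.39 did not pass (limma adjusted p = 0.127), falling to 0.57 without knockout 3.

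The mu class, which conjugates a broad range of electrophiles, had 1 member past the threshold. Gstm7 read 4.46, 4.70 and 4.76 in wild type and 5.18, 5.61 and 5.11 in the knockout, with knockout 2 the highest, and rose by 0.66 ± 0.17 (1.58-fold, limma adjusted p = 0.0391). It passed without knockout 3 (0.0442) and missed the threshold without any other single array (0.0678 to 0.127). Gstm2, at 6.90, 7.01 and 6.97 against 7.29, 7.14 and 7.40, did not overlap but did not pass either (0.32 ± 0.12, limma adjusted p = 0.132). Gstm1 and Gstm4 differed by 0.26 ± 0.13 and 0.37 ± 0.23, and Gstm3 and Gstm6 had means under 2.68, where little can be read. Mu-class genes are close copies of each other, so a probe set may read more than the gene it is named for, and which member changed is uncertain to that extent.

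Gsto1, an omega-class enzyme that reduces dehydroascorbate and removes glutathione from protein thiols, read 8.64, 8.51 and 8.65 in wild type and 9.04, 9.04 and 8.95 in the knockout. The arrays within each group were tight and the groups did not overlap, and the rise of 0.41 ± 0.11 (1.33-fold, limma adjusted p = 0.0476) was the smallest that passed. It missed the threshold without any 1 array (0.0773 to 0.140), and also with all 6 arrays after repeated quantile normalization (0.0588) or with every probe set tested (0.0517). Its neighbour in the class, Gsto2, overlapped between groups at 0.21 ± 0.24 (limma adjusted p = 0.636).

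The alpha and pi classes held no gene past the threshold in limma, and 1 of their 5 members, Gstp3, had an unadjusted p under 0.05. Gsta4, which clears the lipid aldehyde 4-hydroxynonenal in fat, read 8.09, 8.28 and 8.22 in wild type and 8.15, 8.33 and 8.33 in the knockout, a difference of 0.07 ± 0.12 (limma adjusted p = 0.747). Gsta3, a xenobiotic and steroid-metabolising form, differed by 0.40 ± 0.20 with knockout 2 alone at 8.87. Gstp1, the main pi-class enzyme, differed by 0.02 ± 0.16 (limma adjusted p = 0.959), and its close copy Gstp2 by -0.15 ± 0.15. Gstp3 read 4.90, 5.61 and 5.36 against 5.01, 4.68 and 4.38, and its difference of -0.60 ± 0.22 overlapped between groups and did not pass (limma adjusted p = 0.131). Across all 17 cytosolic transferases, 4 rose and 13 did not pass, with a median difference of 0.32, where 5.05% of all genes rose. At an unadjusted p under 0.05, 7 were higher and 1 lower, against 13.1% and 13.4% of all genes.

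**Figure D2:**
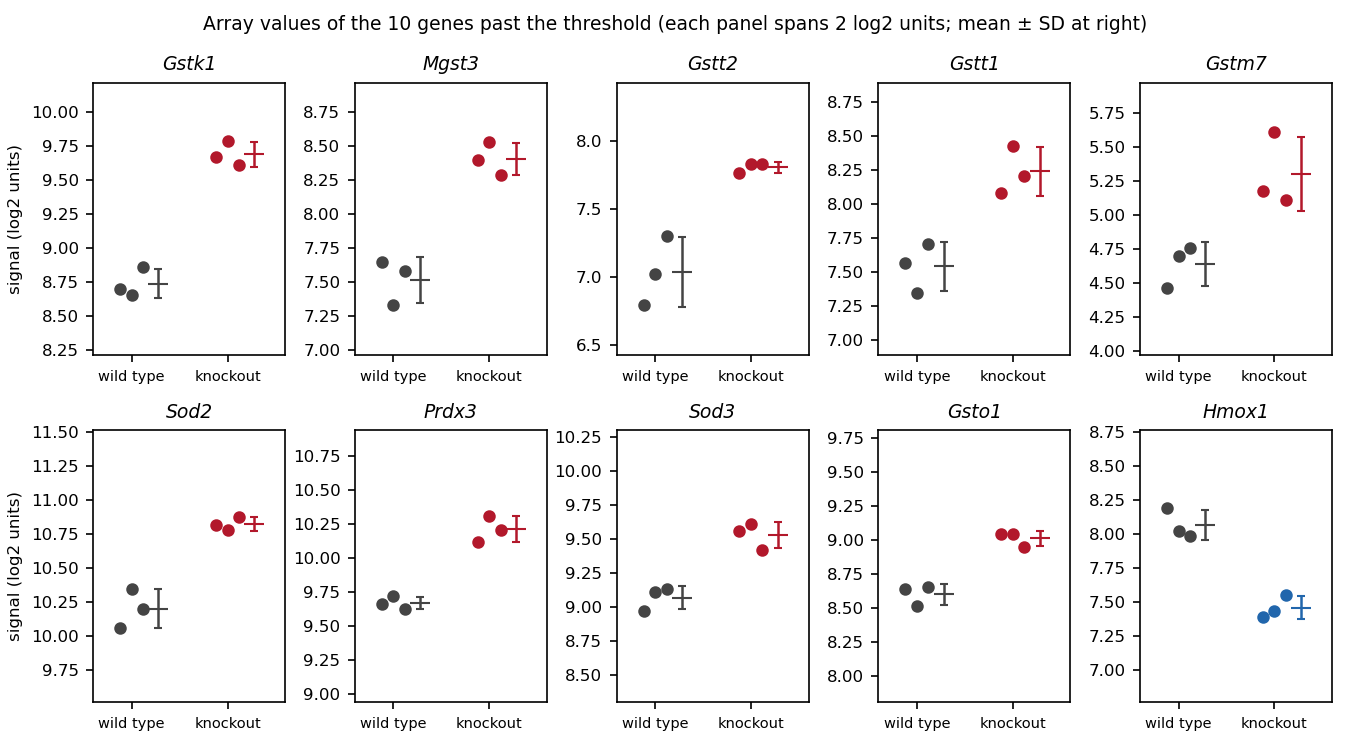
Log2 signal of each array (points) in the wild-type and knockout groups for the 10 members past the threshold, with the group mean ± SD of 3 arrays to the right; each panel spans 2 log2 units around its own centre. No panel shows overlap between groups, with gaps from 0.30 in Gsto1 and Sod3 to 0.74 in Gstk1. The panels were picked by the call, which favours such separation. Of all genes, 17.2% had every knockout array higher and 15.4% every knockout array lower.

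All 3 superoxide dismutases had every knockout array above every wild-type array, as in 17.2% of all genes, and 2 of them rose, as did 5.05% of all genes. Sod2, the manganese enzyme of the mitochondrial matrix, read 10.06, 10.35 and 10.20 in wild type and 10.82, 10.78 and 10.88 in the knockout, and rose by 0.63 ± 0.12 (1.55-fold, limma adjusted p = 0.0149). The adjusted p was 0.0545 without wild type 1 and 0.0506 without wild type 3. Sod3, the secreted extracellular enzyme, read 8.97, 9.11 and 9.13 against 9.56, 9.61 and 9.42, and rose by 0.47 ± 0.12 (1.38-fold, limma adjusted p = 0.0385), a call that was lost without any 1 array (0.0504 to 0.129) and, with all 6 arrays, after repeated quantile normalization (0.0648). Sod1, the copper and zinc enzyme of the cytosol, read 11.24, 10.97 and 11.15 against 11.43, 11.47 and 11.32, and its difference of 0.29 ± 0.12 did not pass (limma adjusted p = 0.183).

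Among the peroxiredoxins analysed (Prdx2, Prdx3 and Prdx4), the mitochondrial Prdx3 moved. Prdx1, Prdx5 and Prdx6 were not among the members. Prdx3 read 9.66, 9.72 and 9.63 in wild type and 10.12, 10.31 and 10.21 in the knockout. The wild-type arrays lay within 0.1 of each other and 0.41 below the lowest knockout array, and Prdx3 rose by 0.55 ± 0.11 (1.46-fold, limma adjusted p = 0.0184). The call was lost without wild type 1 (0.0622), wild type 3 (0.0633) or knockout 2 (0.0752). Prdx2, a cytosolic form abundant in red cells, differed by 0.14 ± 0.11, Prdx4, the form of the endoplasmic reticulum, by 0.00 ± 0.14 and Srxn1, the sulfiredoxin that repairs overoxidised peroxiredoxins, by 0.17 ± 0.21. None of these 3 passed, with limma adjusted p from 0.492 to 0.992.

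Thioredoxins and their reductases held no call in limma, and 2 of the 5 were higher at an unadjusted p under 0.05, as were 13.1% of all genes. Txn2, the mitochondrial thioredoxin that serves Prdx3, read 7.34, 7.14 and 7.49 in wild type and 7.68, 7.76 and 7.69 in the knockout. Its groups did not overlap and the difference was 0.39 ± 0.13 (limma adjusted p = 0.0925). Fitting an intensity trend (0.0407) or centring arrays on their medians (0.0434) brought Txn2 past the threshold. Txnrd2, the mitochondrial reductase, differed by 0.42 ± 0.27 with overlapping groups (limma adjusted p = 0.369). The cytosolic pair stayed nearer 0: Txn1 differed by 0.07 ± 0.11 and Txnrd1 by -0.11 ± 0.11. Txnrd3, a form best known from testis, read 5.88, 5.98 and 5.93 against 6.44, 6.87 and 6.07, a difference of 0.53 ± 0.20 (limma adjusted p = 0.129) that passed without knockout 3 (0.73, adjusted p = 0.0365). Of the 4 members that work chiefly in mitochondria (Sod2, Prdx3, Txn2 and Txnrd2), 2 rose and all 4 lay higher, with a median of 0.48, where 5.05% of all genes rose and 54.4% lay higher.

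Adipocyte genes moved alongside these members, on arrays where 5.05% of all genes rose and 7.2% fell. Of 8 measured markers of thermogenic adipocytes, 4 rose, and their summed signal ran from 9.06 to 10.76 log2 units in wild type and from 11.81 to 12.39 in the knockout. Of 9 white adipocyte markers, 3 rose, with sums of 14.41 to 14.43 against 14.64 to 14.71. Luminal epithelium went the other way: all 14 markers fell, with sums of 11.75 to 11.97 against 9.52 to 9.90, and 6 of 7 basal markers fell, with Krt14 and Krt15 under 2.68 in the knockout. Fibroblast markers fell in 5 of 10, with sums of 14.20 to 14.44 against 13.82 to 13.95, and endothelial markers rose in 2 of 6, with sums of 11.76 to 11.78 against 11.95 to 12.39. The part of these cell types in the redox differences was not tested.

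Glutathione peroxidases are the selenium- or cysteine-based enzymes that reduce peroxides with glutathione. They showed no limma call in 8 members, where 5.05% of all genes rose and 7.2% fell. At an unadjusted p under 0.05, 0 of the 8 passed, where 13.1% of all genes were higher and 13.4% lower. Differences ran from -0.36 to 0.39, with a median of 0.01. Gpx1, the widespread cytosolic form, read 9.46, 9.16 and 9.38 in wild type and 9.17, 9.51 and 9.30 in the knockout (-0.01 ± 0.14, limma adjusted p = 0.979). Gpx3, the secreted plasma form made in fat and kidney, read 10.22, 10.37 and 10.33 against 10.31, 10.26 and 10.40, and its difference was 0.02 ± 0.11. Both genes had groups that interleaved. Gpx4, which reduces lipid peroxides in membranes and guards against ferroptosis, differed by 0.31 ± 0.15 (limma adjusted p = 0.229), and Gpx8, of the endoplasmic reticulum, by 0.39 ± 0.18 (limma adjusted p = 0.210). Gpx7, its relative there, differed by -0.15 ± 0.15. Gpx5 and Gpx6, of epididymis and olfactory tissue, had means under 2.68 in both groups. Gpx2, an epithelial form, had a mean of 2.83 in wild type and 2.47 in the knockout, under that level in the knockout alone, and its groups overlapped.

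The 4 enzymes that make and reduce glutathione did not pass limma either, though 2 of them, Gclc and Gsr, were lower at an unadjusted p under 0.05, as were 13.4% of all genes. Gclc, the catalytic subunit, read 7.93, 7.95 and 8.08 in wild type and 7.78, 7.71 and 7.67 in the knockout, lower in every knockout array, with a difference of -0.26 ± 0.11 (limma adjusted p = 0.174). Gsr read 8.57, 8.65 and 8.82 against 8.49, 8.34 and 8.26, again without overlap (-0.31 ± 0.12, limma adjusted p = 0.154). Every knockout array was likewise lower in 15.4% of all genes, and the gaps were only 0.15 in Gclc and 0.08 in Gsr. Gclm, at -0.04 ± 0.13, and Gss, at 0.25 ± 0.14, overlapped between groups.

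Hmox1, the haem oxygenase that degrades haem to biliverdin, iron and carbon monoxide, was the 1 member that fell. It read 8.19, 8.02 and 7.98 in wild type and 7.39, 7.43 and 7.55 in the knockout, a fall of 0.61 ± 0.12 log2 units to 65.6% of wild type (limma adjusted p = 0.0149). All knockout arrays lay at least 0.43 below the wild-type arrays. The adjusted p was 0.0561 without wild type 1, 0.0503 without knockout 1 and 0.0587 without knockout 2. Macrophages are a main site of haem breakdown. Of 8 macrophage markers 5 fell, where 7.2% of all genes fell, with sums of 11.92 to 12.11 in wild type and 11.37 to 11.50 in the knockout. The part of macrophages in the fall of Hmox1 was not tested. The other genes of the Nfe2l2 arm did not pass. Nfe2l2 differed by -0.19 ± 0.12 (limma adjusted p = 0.395), its classic target Nqo1, a quinone reductase, by -0.06 ± 0.16 (limma adjusted p = 0.853) and its inhibitor Keap1 by 0.35 ± 0.14 (limma adjusted p = 0.157). A second, dimmer probe set of Keap1 gave a difference of 0.05.

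Antioxidant response element cores were found in 8 of the 43 members with a promoter window: Gclm, Gsta3, Gstm7, Mgst1, Nfe2l2, Sod1, Srxn1 and Txnrd1. The match in Srxn1 lies 28 bases after the start. Gstm7 is the 1 with a core among the 7 called members that have a window. Gclc, Gsr, Gsta4, Gstt2, Hmox1 and Sod3 have no window and were not searched, so the called Gstt2, Hmox1 and Sod3 are not covered. Windows with the core made up 14.3% of the members' windows and 12.4% of all windows, searched for TGACNNNGC on both strands. A set of these sites is shown, with the Gstp1 and Gstp2 sites for comparison. The core matches share letters with the element through which Nfe2l2 acts, and binding of Nfe2l2 there was not tested. They were also picked because most of their genes did not pass, but neither did 39 of all 49 members. All sites shown were chosen after the values had been seen. Each stretch runs 5′ to 3′ on the gene's strand, from RefSeq in GRCm38.p6, and capitals mark the element, which reads as its reverse complement where it lies on the opposite strand (Gclm, Mgst1, Srxn1 and Txnrd1). In Gstp1 and Gstp2 the capitals mark an AP-1 element, TGANTCA.

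Gstm7, chr3:107931725-107931753, minus strand: tctgaagaccTGACAAAGCgaagccaatc
Gsta3, chr1:21240454-21240482, plus strand: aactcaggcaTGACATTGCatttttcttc
Gclm, chr3:122245413-122245441, plus strand: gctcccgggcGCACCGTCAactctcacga
Mgst1, chr6:138140461-138140489, plus strand: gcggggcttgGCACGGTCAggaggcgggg
Srxn1, chr2:152105542-152105570, plus strand: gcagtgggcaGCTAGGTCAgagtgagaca
Txnrd1, chr10:82859104-82859132, plus strand: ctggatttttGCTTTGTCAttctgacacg
Gstp1, chr19:4037970-4037996, minus strand: tccaacgtgtTGAGTCAgcatccgggg
Gstp2, chr19:4042294-4042320, minus strand: tccaacgtgtTGAGTCAgcatccgggg

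The Gstp1 and Gstp2 stretches were the same letter for letter, as the close copies they are, and neither gene passed. AP-1 elements stood in 7.14% of the members' windows (Gstp1, Gstp2, Mgst2 and Srxn1) and in 7.81% of all windows, and the element of estrogen-related receptors, TCAAGGTCA, in 0 of the 56 member windows and 0.423% of all. No match says only that the letters are not in this window.

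**Figure D3:**
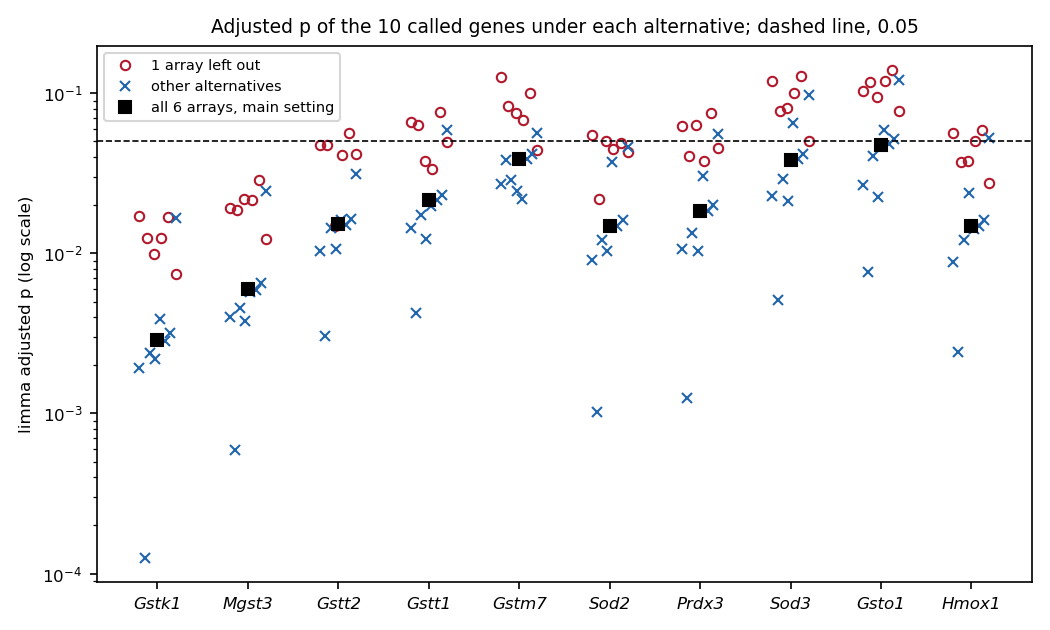
Limma adjusted p (vertical axis, log scale) of the 10 called members with all 6 arrays (squares), with 1 array left out (circles) and under the other alternatives (crosses); the dashed line is 0.05. Every mark of Gstk1 and Mgst3 lies under the line, while all 6 circles of Gsto1 and Sod3 lie above it.

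Of 95 further genes listed for the same pathways, 86 were measured, and 14 rose (16.3%, against 5.05% of all genes) and 10 fell (11.6%, against 7.2%). The count of rises was 6 without wild type 1, 7 without wild type 2, knockout 1 or knockout 2, 8 without wild type 3 and 13 without knockout 3, and it was 22 with an intensity trend and 24 with arrays centred on their medians. The largest rises were Abcc2, an export pump for glutathione conjugates (3.24 to 4.55 in group means, 1.31 ± 0.23, limma adjusted p = 0.0114), and Cth, which makes cysteine from cystathionine (6.33 to 7.43, 1.11 ± 0.19, limma adjusted p = 0.00972). Txnip, a thioredoxin-binding inhibitor, rose by 0.89 ± 0.22, Idh2, a mitochondrial source of NADPH, by 0.85 ± 0.12, Oplah, which returns oxoproline to glutamate, by 0.81 ± 0.13 and Glrx3, a glutaredoxin, by 0.69 ± 0.12. Glrx (0.55 ± 0.14) and the mitochondrial Glrx5 (0.52 ± 0.12) rose as well.

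The falls were led by Nxn, nucleoredoxin, a thioredoxin relative that binds the Wnt mediator Dishevelled. It read 6.92, 6.59 and 6.43 in wild type and 4.57, 5.22 and 5.26 in the knockout, and fell by 1.63 ± 0.22 (3.10-fold, limma adjusted p = 0.00363), more than any member. Osgin1, an oxidative stress-induced growth inhibitor, fell by 1.15 ± 0.21, Anpep, an aminopeptidase that splits glutathione breakdown products, by 1.04 ± 0.13, the transporter Abcc3 by 0.97 ± 0.20 and Ephx1, a microsomal epoxide hydrolase, by 0.86 ± 0.15. In the list of Nfe2l2 partners and targets, 2 of 24 rose (Aox1 and Abcc2) and 3 fell (Abcc3, Ephx1 and Osgin1), or 8.33% and 12.5% against 5.05% and 7.2% of all genes, with a median of -0.04. Slc7a11, the cystine importer, lay under 2.68 in both groups.

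Of 8 NADPH oxidase genes measured, 3 fell (37.5%, against 7.2% of all genes), all of the phagocyte oxidase, which makes superoxide. Ncf1, a further gene of the phagocyte oxidase, differed by -0.34 ± 0.15 and did not pass (limma adjusted p = 0.195). No oxidase gene rose in limma, and 2, Nox1 and Duox2, were higher at an unadjusted p under 0.05 with wild-type means under 2.68. Ncf4, a regulatory subunit, fell by 0.94 ± 0.15 (limma adjusted p = 0.00841), Cybb, the catalytic chain, by 0.86 ± 0.15 (limma adjusted p = 0.00958) and Cyba, its partner, by 0.82 ± 0.14 (limma adjusted p = 0.00884). In all 3 genes each knockout array lay below each wild-type array, as in 15.4% of all genes. These 3 were picked by their call, which favours such separation. The macrophage markers given beside Hmox1 moved with them, and the part of macrophages was not tested. Nox4, a form of fibroblasts and vessels, differed by -0.01 ± 0.12.

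**Figure D4:**
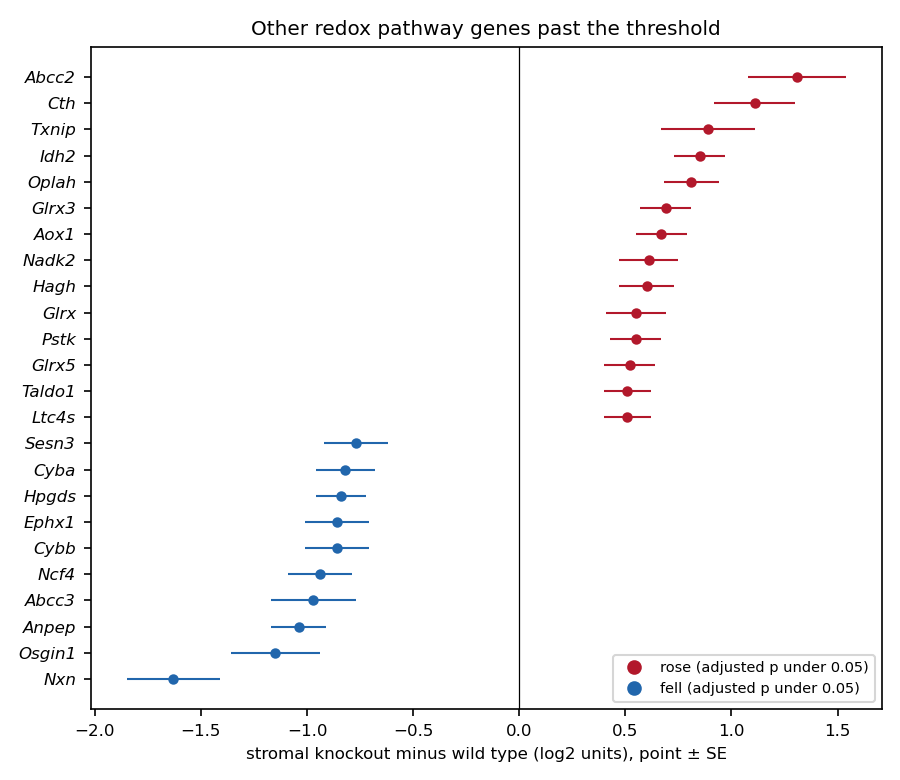
Knockout minus wild type in log2 units (horizontal axis), with bars of 1 SE, for the 24 further pathway genes past the threshold, ordered by size (n = 3 arrays per group). The rises (red) run from Ltc4s at 0.51 to Abcc2 at 1.31 and the falls (blue) from Sesn3 at -0.77 to Nxn at -1.63.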

How the data were processed

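The authors deposited log2 signals of 6 arrays, and the submitters' processing notes name RMA and limma without versions. That the logarithm has base 2 was inferred from RMA and from the values' range. The chip definition was given in none of the sources used here. The table has 41345 probe sets; the platform annotation lists 25335, of which 23521 have 1 symbol and 1814 several, and the other probe sets are unnamed here. The probe set with the highest mean was kept for each of 22180 genes.

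Groups were compared with limma 3.58.1 (lmFit, eBayes without a trend) under R 4.3.3, with p adjusted over all genes (Benjamini-Hochberg, 0.05). Ratios are powers of 2 of the difference. The steps were tested on simulated data. The number of arrays limits the precision. Members past the threshold, or with a difference of at least 0.5, are given by array, with up to 6 rises and 6 falls of the pathway list; other genes named from that list and the shown sites were chosen after their values were seen. Members and lists were chosen with earlier results of these data known. Promoter windows are RefSeq's, of GRCm38.p6. Titles number the replicates 1 to 3 in both groups, but deviations from the group means correlated at -0.05 to -0.03 over genes for like numbers, so the numbers were not taken as pairs.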

Additional observations from a re-analysis of the deposited data

How the results depend on the processing

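The 14 alternatives left out low genes, added an intensity trend or array weights, centred arrays on their medians, repeated quantile normalization, averaged probe sets or tested each, added the replicate number as a block, or left out 1 array. No called member changed sign. Gstk1 and Mgst3 kept their call throughout, 8 called members lost it at least once, and 4 others passed at least once (Gstt3, Gstt4, Txn2 and Txnrd3). Of the members that passed nowhere, 8 near 0 changed sign at least once (Gclm, Gpx1, Gpx3, Gpx5, Gstm3, Gstp1, Nqo1 and Prdx4). With 1 array left out, rises of members numbered 3 to 8, falls 0 to 1, rises of pathway genes 6 to 13 and all calls 1490 to 2304; fewer arrays leave fewer degrees of freedom.

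With the replicate number as a block, rises over all genes dropped from 1121 to 689 and falls from 1596 to 1234. Of the pathway genes 9 rose, and of the members 5 rose and 0 fell. The calls lost were those of Hmox1 (adjusted p = 0.0526), Prdx3 (0.0558), Gstm7 (0.0566), Gstt1 (0.059), Sod3 (0.0979) and Gsto1 (0.121). The block also leaves fewer degrees of freedom, and Gstt4 passed under it (1.05, adjusted p = 0.0346). Rises of pathway genes numbered 22 with an intensity trend and 24 with centred arrays, where the cause was not tested. Rises over all genes numbered 1550 with the trend. Centring took the median over all genes from 0.03 to 0.12 and the share of rises among all calls from 41.3% (1121 rises, 1596 falls) to 57.0% (1768 and 1333), with 11 members rising. Low signal limits Gpx5, Gpx6, Gstm3 and Gstm6, under the 33rd percentile of gene levels in both groups, Gpx2 in the knockout and Gstt4 in wild type.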

Other observations

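Selenoprotein synthesis supplies the selenocysteine of several peroxidases and of the thioredoxin reductases. Of 7 measured genes of this pathway, 1 rose in limma (14.3%, against 5.05% of all genes), and 3 were higher at an unadjusted p under 0.05, as were 13.1% of all genes. Pstk, the kinase that phosphorylates seryl-tRNA for selenocysteine, read 6.41, 6.48 and 6.59 in wild type and 7.15, 7.06 and 6.91 in the knockout, a rise of 0.55 ± 0.12 (limma adjusted p = 0.0242). Sephs2, which makes the selenium donor, differed by 0.58 ± 0.18 (limma adjusted p = 0.0809) and Sepsecs, which completes the charged tRNA, by 0.47 (limma adjusted p = 0.0622).

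Of 9 measured genes for peroxide removal and NADPH supply, 3 rose (33.3%, against 5.05% of all genes): Idh2, Nadk2, the mitochondrial NAD kinase (0.61 ± 0.14, limma adjusted p = 0.0269), and Taldo1 of the pentose phosphate route (0.51 ± 0.11, limma adjusted p = 0.0244). The cytosolic NADPH sources Me1 and Idh1 differed by -0.21 ± 0.16 and -0.06 ± 0.11, and Cat, catalase, by 0.16 ± 0.13. Nnt, the mitochondrial transhydrogenase, for which C57BL/6J mice carry a known deletion, is read by a probe set whose place relative to that deletion is not known here. It read 7.28, 7.13 and 7.03 in wild type and 6.86, 6.66 and 6.06 in the knockout, where knockout 3 was lowest. Its groups did not overlap and the difference of -0.62 ± 0.21 did not pass (limma adjusted p = 0.0978).

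Hpgds, the haematopoietic prostaglandin D synthase of the sigma transferase class, fell by 0.84 ± 0.12 (limma adjusted p = 0.00443). Ltc4s, which couples glutathione to leukotriene A and belongs to the Mgst membrane family, rose by 0.51 ± 0.11 (limma adjusted p = 0.0263), and Hagh, the glyoxalase that frees glutathione from lactoylglutathione, by 0.60 ± 0.13 (limma adjusted p = 0.0206).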
